A study of Mus musculus with 2 samples.

Results

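The let-7 and miR-98 hairpins are a family of microRNA (miRNA) genes whose 5p arms carry the same seed. Of the 1973 miRNA genes counted in embryonic mouse hindbrain, 10 were taken as members, by matching the Ensembl ID of each row to a list of GENCODE M21 symbols: Mirlet7g, Mirlet7i, Mirlet7d, Mir98, Mirlet7b, Mirlet7f-2, Mirlet7c-1, Mirlet7a-2, Mirlet7a-1 and Mirlet7c-2. The matching itself used no measured value. Taken by name, the family was set at 12 genes, and the others, Mirlet7e and Mirlet7f-1, have no row of their own in the tables. The annotation was not searched for further genes with this seed.

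The study measured small RNA, in a size range given as below 30, from healthy hindbrain of strain B6NCrl mice at embryonic day 12.5, with no allele or treatment named in the labels. All tissue belongs to 1 group of 2 libraries: 120 embryos, male and female, were pooled for biological replicate 1, and 88 for replicate 2. Both pools carry the same donor label, so only the replicate numbers and pool sizes set them apart. There is no second condition, and pooled whole hindbrain gives no value for single embryos or cell types: fewer cells of a type and less RNA per cell cannot be told apart. Values are counts on the strand of the gene per 1000000 such counts over all miRNA genes (CPM), from 2764276 counts in replicate 1 and 3946444 in replicate 2.

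As background, a miRNA is cut from a hairpin precursor, and bases 2 to 8 of the mature strand, the seed, pair with target messenger RNAs and repress them. let-7 was found in the worm Caenorhabditis elegans as a timing gene for late development, and in vertebrates it is known for promoting differentiation and exit from the cell cycle. The RNA-binding proteins LIN28A and LIN28B, found in progenitor cells, bind let-7 precursors and block their maturation. The hindbrain of this stage contains progenitors that still divide beside new neurons, and messenger RNAs such as those of LIN28 were not measured in these small RNA libraries.

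The mature 5p strands are shown first because their differences decide which hairpin a read can be assigned to. Capitals mark the seed, bases 2 to 8, and the sequences are those of RefSeq on GRCm38.p6.
let-7g-5p: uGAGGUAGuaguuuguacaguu
let-7i-5p: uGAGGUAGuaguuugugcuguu
let-7d-5p: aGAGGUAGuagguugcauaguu
miR-98-5p: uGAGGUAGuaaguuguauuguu
let-7b-5p: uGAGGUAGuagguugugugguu
let-7e-5p: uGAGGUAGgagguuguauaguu
let-7f-5p: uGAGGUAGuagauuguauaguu
let-7c-5p: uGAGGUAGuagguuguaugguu
let-7a-5p: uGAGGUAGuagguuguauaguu
All 12 genes share the seed GAGGUAG, and their 5p arms come to 9 distinct sequences. Counted from 1 at the 5′ end and with the let-7a-5p base first, let-7c-5p differs by A19G alone, let-7f-5p by G12A alone and let-7e-5p by U9G alone. let-7g-5p differs by G12U and U18C, let-7b-5p by A17G and A19G, and miR-98-5p by G11A and A19U. let-7d-5p differs by U1A and U16C, and let-7i-5p, the most distant, by G12U, A17G, U18C and A19U.

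Mirlet7g, Mirlet7i, Mirlet7d, Mir98 and Mirlet7b are single-copy members: neither of their mature strands occurs in another miRNA hairpin of the annotation. The 5 multi-copy members share a mature strand with another hairpin. let-7a-5p lies in Mirlet7a-1 and Mirlet7a-2, let-7c-5p in Mirlet7c-1 and Mirlet7c-2, and let-7f-5p in Mirlet7f-1 and Mirlet7f-2. The same division results when hairpins are called multi-copy for an identical run of 20 bases in another hairpin.

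The 3p strands of the multi-copy hairpins separate them further, and are shown with capitals at bases that differ from let-7a-1-3p at the same position.
let-7a-1-3p: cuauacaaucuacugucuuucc
let-7c-2-3p: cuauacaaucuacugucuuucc
let-7f-2-3p: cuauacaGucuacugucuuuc
let-7f-1-3p: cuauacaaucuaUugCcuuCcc
let-7c-1-3p: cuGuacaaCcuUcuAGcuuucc
let-7a-2-3p: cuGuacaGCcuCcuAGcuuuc
The 3p strands of Mirlet7a-1 and Mirlet7c-2 are identical, although these hairpins have different 5p strands and lie on chromosomes 13 and 15. These are the members with both mature strands shared, while Mirlet7f-2, Mirlet7c-1 and Mirlet7a-2 share only the 5p strand.

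The whole hairpins of Mirlet7g, the highest member, and Mirlet7c-2, the member with the lowest mean, show the layout, with the mature strands in capitals and the loop between them.
Mirlet7g: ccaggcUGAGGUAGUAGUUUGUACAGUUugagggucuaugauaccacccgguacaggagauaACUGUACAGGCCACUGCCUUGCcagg
Mirlet7c-2: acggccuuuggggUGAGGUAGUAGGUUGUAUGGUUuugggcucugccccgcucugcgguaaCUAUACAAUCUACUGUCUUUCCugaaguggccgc
The members' hairpins are 83 to 108 bases long and their annotated mature strands 21 or 22. Read lengths are not given in the tables, and CPM levels were not scaled by length. Each count adds up the 5p and 3p arm of its hairpin, from reads with one genomic position. Reads that match several positions, 32.7% of 5947846 reads in replicate 1 and 33.4% of 8656439 in replicate 2, are assigned to no gene.

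Mirlet7g, the gene of let-7g, was the highest member. Its level was 22161 CPM in replicate 1 against 20109 CPM in replicate 2, or 21135 ± 1450 CPM (SD, n = 2), which placed it 11th among all miRNA genes. It lies on GRCm38 chromosome 9 from 106178840 to 106178927, within an intron of Wdr82, which codes for protein. Mirlet7i, the gene of let-7i, followed at 16520 and 17537 CPM (17028 ± 719 CPM, rank 14). It lies on chromosome 10 from 122985640 to 122985724 on the minus strand, over an exon of the transcribed pseudogene D630033A02Rik. In replicates 1 and 2, Mirlet7g was 1.34-fold and 1.15-fold above Mirlet7i, and their ranges did not overlap. Both hairpins stand alone, with no other miRNA gene within 10 kb on their strand.

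These leading genes held most of the members' assigned counts. Reads at Mirlet7e, at 5177 and 4170 CPM in replicates 1 and 2, are no part of these shares. Mirlet7g by itself gave 49.3% of the members' counts in replicate 1 and 47.2% in replicate 2, and Mirlet7i gave 36.8% and 41.1%. Together they held 87.2% ± 1.58 of the members' counts (SD, n = 2); the other 8 hairpins held the rest.

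Mirlet7d, Mir98 and Mirlet7b formed a middle group. Mirlet7d, the gene of let-7d, had 2613 CPM in replicate 1, and replicate 2 gave 1750 CPM. Mir98, which encodes miR-98 with the let-7 seed, had 1792 and 1584 CPM, below Mirlet7d by 1.46-fold and 1.10-fold, so their order was the same in both libraries although their ranges overlapped. Mirlet7b had 873 and 821 CPM, and Mir98 was 2.05-fold and 1.93-fold above it in the same replicates. Mirlet7d lies on chromosome 13 from 48536012 to 48536114 over an exon of the lincRNA gene 6720427I07Rik, Mir98 on chromosome X from 151913214 to 151913321 within an intron of Huwe1, a ubiquitin ligase gene, and Mirlet7b on chromosome 15 from 85707319 to 85707403 over an exon of the noncoding gene Lncppara. The step between Mirlet7i and Mirlet7d, 6.32-fold in replicate 1 against 10.02-fold in replicate 2, was the widest between neighbours in the order.

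The multi-copy hairpins took the lowest 5 places. Mirlet7f-2 led them with 499 CPM in replicate 1 against 485 CPM in replicate 2, below every single-copy member in both libraries. Mirlet7c-1 had 168 and 118 CPM and Mirlet7a-2 had 137 and 100 CPM, with overlapping ranges and the same order in both libraries. Mirlet7a-1 had 78.9 and 70.4 CPM and Mirlet7c-2 had 87.5 and 45.6 CPM. The order of the last pair changed between the libraries, so it was not resolved. All 10 members, and 371 of the 1973 genes, reached 10 counts in each library, and the lowest count of a member was 180, for Mirlet7c-2 in replicate 2.

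**Figure D1:**
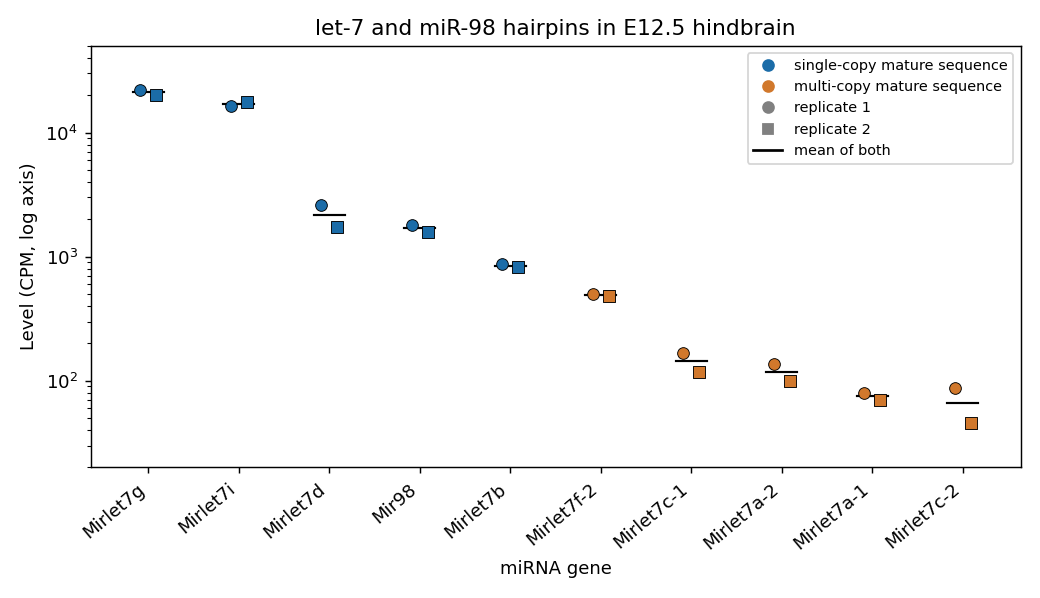
Level of each member in CPM on a log axis, with circles for replicate 1, squares for replicate 2 and a line at their mean; colour gives the copy class. Mirlet7g and Mirlet7i stand above all others, and the 5 multi-copy hairpins lie below every single-copy one.

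Single-copy members averaged 8792 CPM per hairpin in replicate 1, against 194 CPM for multi-copy members, and 8360 CPM in replicate 2, against 164 CPM. The ratio was 45.3 in replicate 1 and 51.0 in replicate 2, or 48.2 ± 4.03 (SD, n = 2). It rests largely on Mirlet7g and Mirlet7i: without them the 3 remaining single-copy hairpins were 9.07-fold and 8.46-fold above the multi-copy mean. By medians over hairpins, the ratio was 19.1 and 17.5. No test was made over hairpins, since members counted in the same library are not replicates, and an exact sign-flip test over 2 libraries cannot go below 0.5.

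The 10 members were also grouped by how many of their mature strands are shared. The 5 members with no shared strand ranged from 821 to 22161 CPM over both libraries, the 3 with a shared 5p strand from 100 to 499 CPM, and Mirlet7a-1 and Mirlet7c-2, with both strands shared, from 45.6 to 87.5 CPM. Among the members these ranges did not overlap, but Mirlet7f-1, which shares its 5p strand alone and is no member, departed from that order: its reads, described further on, were 21.7 and 18.2 CPM, below both Mirlet7a-1 and Mirlet7c-2. This is a description of a few hairpins, whose counts exclude reads that match several positions. How much of each multi-copy hairpin's output is missing from its count was not measured by these tables.

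A read can be told apart from all other annotated hairpins once it is long enough. Read from the mature 5′ end into the hairpin, the 5p strands of single-copy members became unique after 9 bases (Mirlet7d), 11 bases (Mir98) or 17 bases (Mirlet7g, Mirlet7i and Mirlet7b), within the 22 bases of the mature strand. Those of multi-copy members became unique only after 23 bases (Mirlet7f-2) or 24 bases (Mirlet7c-1, Mirlet7c-2, Mirlet7a-1 and Mirlet7a-2), past the end of the mature strand. The 3p strands became unique after 8 to 12 bases in the 8 members whose 3p strand is their own, and after 24 bases in Mirlet7a-1 and Mirlet7c-2. These lengths compare exact runs among miRNA hairpins of the annotation and leave out the rest of the genome.

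**Figure D2:**
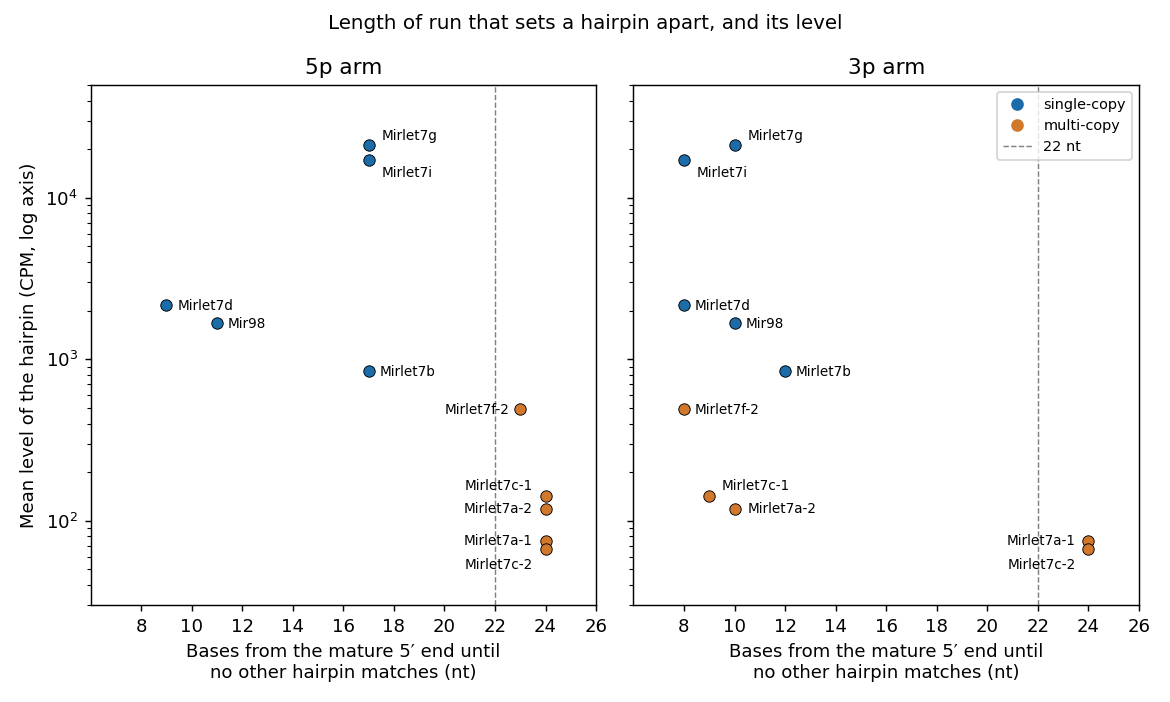
Mean level of each member (CPM, log axis) against the number of bases, counted from the mature 5′ end, after which no other annotated hairpin matches, for the 5p arm (left) and the 3p arm (right); the dashed line marks 22 nt. The 5 multi-copy members lie right of the line in the 5p panel, and Mirlet7a-1 and Mirlet7c-2 also in the 3p panel.

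The difference between the classes was set beside the same division of all other miRNA genes. Among the members, the median was 2613 CPM for single-copy and 137 CPM for multi-copy hairpins in replicate 1, and 1750 CPM for single-copy and 100 CPM for multi-copy hairpins in replicate 2. Among other genes that reached 10 counts in each library, the single-copy median was 192 CPM and the multi-copy median 200 CPM in replicate 1, and these medians were 183 and 173 CPM in replicate 2. Of 805 other single-copy genes 34.9% reached that count, and of 327 other multi-copy genes 13.5%. The medians of other genes cover only those that reached 10 counts in each library, a smaller part of the multi-copy class. They therefore cannot show how the classes compare without that minimum. These medians are a description, and the difference was not tested.

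In 3 loci a single-copy and a multi-copy member lie close together on the same strand, inside the same annotated host gene. Their assigned counts were compared within each locus. On chromosome 13, Mirlet7d exceeded Mirlet7a-1, which lies 2065 bp away, 33.1-fold in replicate 1 and 24.8-fold in replicate 2. On chromosome 15, Mirlet7b exceeded Mirlet7c-2, at 622 bp, by 9.98-fold and 18.0-fold. On chromosome X, Mir98 exceeded Mirlet7f-2, at 786 bp, by 3.59-fold and 3.27-fold. The single-copy hairpin was the higher in all 3 loci and in both libraries. Mirlet7a-1 lies from 48538179 to 48538272, Mirlet7c-2 from 85706603 to 85706697 and Mirlet7f-2 from 151912346 to 151912428.

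Mirlet7a-2 and Mirlet7c-1 instead neighbour members of the miR-99/100 family, which are single-copy genes. Mirlet7a-2, on chromosome 9 from 41536716 to 41536811 within introns of Gm49317 and 3110039I08Rik, had 137 and 100 CPM in replicates 1 and 2, whereas Mir100, 5212 bp away, had 52244 and 57778 CPM. Mir100 was thus 382-fold and 577-fold above it. Mirlet7c-1, on chromosome 16 from 77599657 to 77599750 within an intron of Mir99ahg, had 168 and 118 CPM, whereas Mir99a, 657 bp away, had 130481 and 139073 CPM, or 777-fold and 1178-fold more. Mir125b-1 and Mir125b-2, the mammalian relatives of the worm timing miRNA lin-4 on the same chromosomes 9 and 16, also share their 5p strand with each other. They averaged 2073 ± 108 and 1220 ± 33.6 CPM (SD, n = 2), above every multi-copy let-7 hairpin in both libraries.

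**Figure D3:**
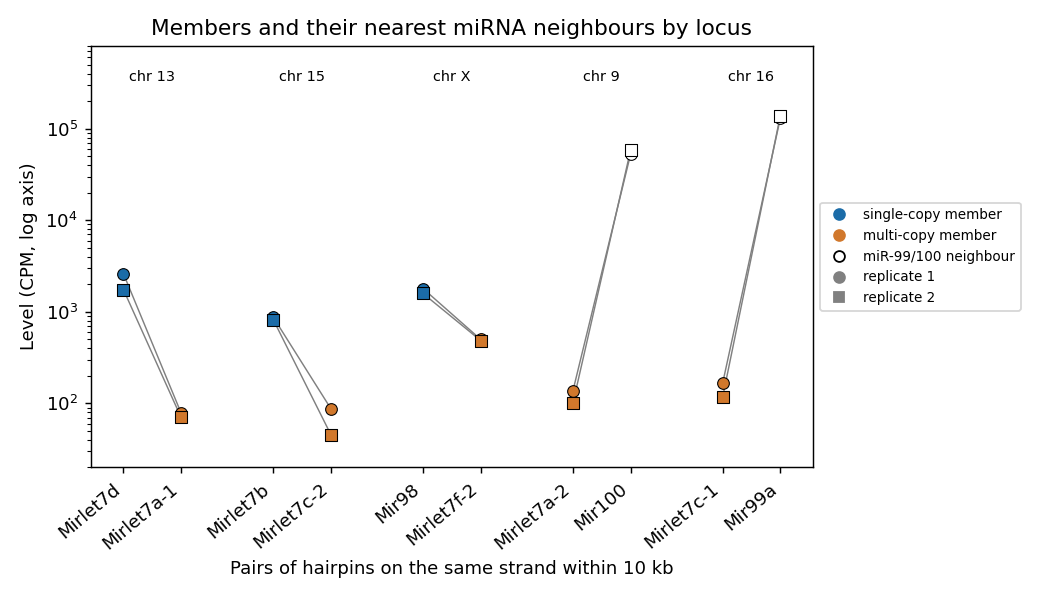
Levels (CPM, log axis) of members and of the miRNA gene beside them in 5 loci, each pair joined by a line per replicate (circles replicate 1, squares replicate 2). In the first 3 pairs the single-copy member is above its multi-copy neighbour by 3.27-fold to 33.1-fold, and in the last pairs the multi-copy member is far below Mir100 or Mir99a.

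The remaining genes of the 12, Mirlet7e and Mirlet7f-1, could be read only from counts opposite to a gene annotated over them on the other strand. Gm25927 covers all 93 bases of Mirlet7e on chromosome 17 from 17830352 to 17830444. It had 0 counts on its own strand, and 14312 counts on the opposite strand in replicate 1 and 16458 in replicate 2, or 5177 and 4170 CPM. That is 1.98-fold and 2.38-fold more than Mirlet7d had, and less than Mirlet7i had, so these reads stood between both genes in each library. Mirlet7e lies between Mir99b and Mir125a: Mir99b was 5.98-fold and 6.52-fold higher than these reads, and Mir125a 1.12-fold and 1.04-fold higher. Its mature strands lie in no other hairpin, as in the single-copy members.

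Gm24111 covers all 89 bases of Mirlet7f-1 on chromosome 13 from 48537829 to 48537917, and was added after its values were seen. It had 60 counts opposite to its own strand in replicate 1 and 72 in replicate 2, or 21.7 and 18.2 CPM, and 0 on its own strand. Mirlet7a-1, 262 bp from Mirlet7f-1, was 3.63-fold and 3.86-fold above these reads, and Mirlet7f-2, which shares the let-7f-5p strand, was 23.0-fold and 26.6-fold above them. By assigned reads, Mirlet7f-1, a multi-copy gene, would therefore be the lowest of the 12. Reads at several positions are left out, so its full output was not measured.

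The 10 members together held 4.49% of the assigned counts in replicate 1 with a 95% interval (exact Clopper-Pearson) from 4.47% to 4.52%, and 4.26% in replicate 2, with an interval from 4.24% to 4.28%. Of this, the single-copy members gave 4.40% and 4.18%, and the multi-copy members 0.0970% and 0.0819%. The intervals of the members' share did not overlap between the libraries, but they cover counting error alone. Reads without molecular identifiers are not independent molecules. With the reads at Mirlet7e and Mirlet7f-1 added, the share of the 12 genes was 4.82% as the mean of both libraries.

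Genes nearest to Mirlet7g in level over the 2 libraries, by Euclidean distance of log2(CPM + 1), were Mir26b, Mir322 and Mir126a. Mir26b, at a distance of 0.087, had 21980 CPM in replicate 1 against 21344 CPM in replicate 2. Mir322, at 0.26, had 19078 and 22188 CPM, and Mir126a, known from endothelial cells, had 25987 and 23442 CPM at 0.32. With 2 libraries, this says only that the levels are close.

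No member was called as differing between the libraries. Calls needed a 2-fold difference or more together with a Benjamini-Hochberg adjusted p under 0.05 in a two-sided exact binomial test over 393 genes. Of those 393 genes, 14 (3.56%) were called. The test compares the reads of 2 pools of the same group and not conditions, and with counts this deep it also calls small shifts. At an unadjusted p under 0.05, 8 of the 10 members and 220 of all genes passed. The 393 genes reach down to a mean of 10 counts, below the lowest member, so members and all genes are compared at unlike depths.

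Without the minimum fold, 8 of 10 members passed the adjusted threshold, against 51.7% of all genes. Passing depends on depth, and these shares also compare unlike depths. The test counts reads as independent molecules, so these p-values cover counting error alone. Of the 8 members that passed, 7 were lower in replicate 2 (26.5% of all genes) and Mirlet7i alone was higher (25.2%). Mirlet7c-2 was the farthest apart, with 87.5 CPM in replicate 1 against 45.6 CPM in replicate 2, or 1.92-fold lower in replicate 2. Mirlet7d followed at 1.49-fold lower, then Mirlet7c-1 at 1.42-fold and Mirlet7a-2 at 1.37-fold. Mirlet7i was 1.06-fold higher in replicate 2, whereas Mirlet7g was 1.10-fold lower, which narrowed the lead of Mirlet7g there. Mirlet7b passed narrowly (exact binomial test, adjusted p = 0.046), and its call was lost with TMM factors (adjusted p = 0.25), with DESeq2 size factors (adjusted p = 0.38) and without Mir99a in the total (adjusted p = 0.10), while with all reads as denominator the adjusted p was 0.0068. Mirlet7f-2 and Mirlet7a-1 did not pass.

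Counting direction alone, 9 of 10 members were lower in replicate 2, as were 52.9% of all genes. With DESeq2 size factors Mirlet7f-2 changed its sign, to 0.0034 on the log2 scale, and 8 members were lower. The median log2 ratio of replicate 2 over replicate 1 was -0.17 for the members and -0.04 for all 393 genes. The median size of that ratio without its sign was 0.17 for the members and 0.24 for all genes. The set of all genes reaches down to a mean of 10 counts, below the lowest member, so these medians compare unlike depths.

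**Figure D4:**
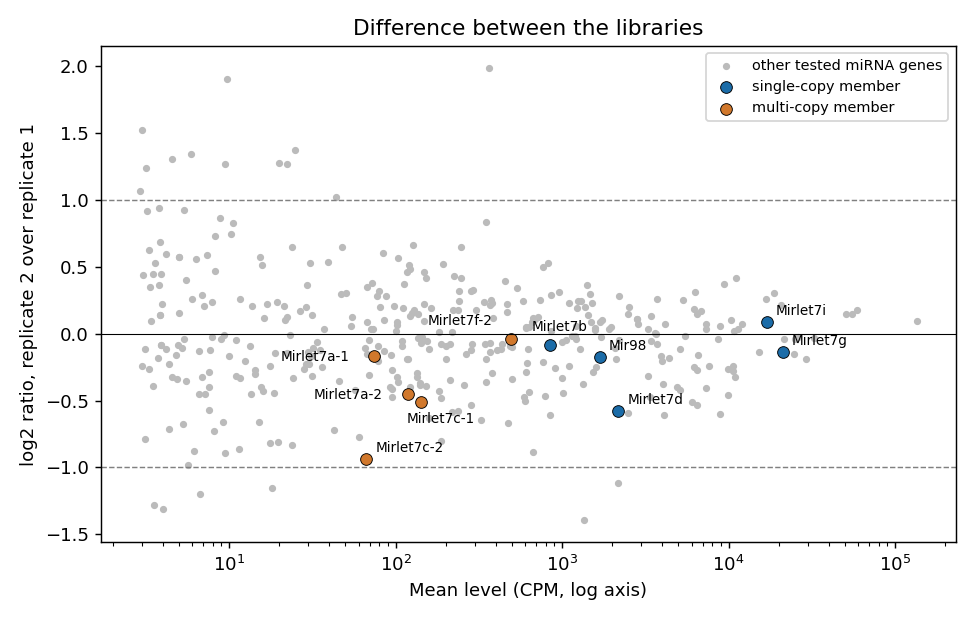
log2 ratio of replicate 2 over replicate 1 against the mean level (CPM, log axis) for the 393 tested genes, with members coloured by copy class and dashed lines at 2-fold. Mirlet7c-2 is the member nearest to the 2-fold line, and Mirlet7i is the member above 0.

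The tissue label was checked against miRNAs of known expression. Mir10a, Mir10b and Mir615, encoded in Hox clusters active in hindbrain and spinal cord, summed to 44582 CPM in replicate 1 against 42371 CPM in replicate 2. The neuronal list summed to 5049 and 5291 CPM, with 5 of 7 counted members detected. Most of this came from Mir137, at 3263.1 and 3342.5 CPM, and Mir153, at 1316 and 1614 CPM. Mir124a-2, the only miR-124 gene detected, had 10.5 and 9.38 CPM, and Mir124-2 was not counted. Reads at several positions are in no count, so these values do not measure miR-124 as a whole. The progenitor list of miR-9 genes summed to 369 and 400 CPM, from a family whose copies share sequence. Of its 3 genes 2 were counted and 1 was detected, Mir9-3, at 367 and 398 CPM. Lists of other tissues also differed between the pools. The 7 epithelial miRNAs, all detected, summed to 9660 and 6470 CPM, and the 4 mesenchymal ones, all detected, to 12931 and 10846 CPM. Each sum rests largely on a few genes. Among the epithelial ones Mir429 had 2950 and 1362 CPM, Mir200c 1959 and 746 CPM, and Mir203 2230 and 2155 CPM. Mir205 alone was higher in replicate 2, at 1271 and 1459 CPM. Among the mesenchymal ones Mir214 alone was lower in replicate 2, at 12145 and 9714 CPM. Mir199a-1, Mir199a-2 and Mir199b were higher there, with Mir199b at 672 and 970 CPM. The 5 counted miRNAs of skeletal muscle, 2 of them detected, summed to 152 and 593 CPM. Most of this came from Mir206, at 146 and 579 CPM, while Mir133b had 5.43 and 13.4 CPM. Both were among the genes called as differing between the libraries. Mir1a-1 and Mir133a-1 had 0 counts in both, which leaves out reads at several positions and does not show absence. The leukocyte, erythroid and liver lists summed to at most 501 CPM in a library, and the endothelial Mir126a is given above. The part of these tissues in the differences of Mirlet7d, Mirlet7c-2 and the other members was not tested.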

How the data were processed

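Small RNA of 2 libraries from embryonic hindbrain was analysed. The authors made raw read counts per miRNA gene from alignments to mm10 with annotation M4, per the text files deposited alongside. Aligner and settings: not given in the sources used here. Columns hold both strands, the strand of the gene and the opposite strand, an order inferred from the layout and from the gene's strand holding 97.6% and 97.7% of counts. Totals leave out rows without a gene: unmapped reads were 15.7% and 16.2%, reads at several positions 32.7% and 33.4%, and reads outside miRNA genes 5.12% and 4.81%. Ligation and amplification act on each sequence, so levels compared between hairpins carry an error that replicates do not show. A count of 0 allows up to 3 counts, or 1.09 and 0.760 CPM.

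IDs were matched without versions to GENCODE M21 (GRCm38, the assembly of mm10), which gave symbols for 1894 of 1973 genes. All 10 members had a RefSeq hairpin identical to the GENCODE transcript. A gene was multi-copy when a RefSeq mature sequence it holds occurs in another M21 miRNA hairpin; 1142 genes held a mature sequence.

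Libraries were compared by a two-sided exact binomial test on genes averaging 10 counts or more, with Benjamini-Hochberg adjustment and 0.5 added in the ratio. It was tried on simulated counts over 393 genes for replicate 2 against replicate 1. There it called 90 of 100 genes changed 2.5-fold, 97 of 100 changed 4-fold and 0 of 193 unchanged. Those counts were Poisson draws with no spread between libraries beyond counting error, and calls also needed a 2-fold difference. The simulation therefore cannot show how often real spread between pools would be called. Alternatives were both strands, other totals, edgeR 4.0.16 TMM factors, DESeq2 1.42.0 size factors, other minimums, pseudocounts and class definitions, and leaving out each library. R 4.3.3, SciPy 1.17.1, Python 3.11.15, matplotlib 3.10.9, pandas 2.3.3 and numpy 2.4.6 were used. Named genes are the members, other let-7 genes, miRNA genes within 10 kb on a member's strand, the miR-125 genes, the 3 genes nearest to Mirlet7g and the tissue markers; Mir99b and Gm24111 fall outside this rule and were chosen after their values were seen. The members and lists were chosen with earlier results of these data known.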

Additional observations from a re-analysis of the deposited data

Results flagged for a closer look

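Reads on the strand opposite to Gm25927, at Mirlet7e, gave 5177 CPM in replicate 1 against 4170 CPM in replicate 2. They stand out because they lie in a column outside the main counts and far above the 1.09 and 0.760 CPM that a count of 0 allows. Reads on the strand opposite to Gm24111, at Mirlet7f-1, gave 21.7 CPM in replicate 1 against 18.2 CPM in replicate 2, above the same limits.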

How the results depend on the processing

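No paired analysis was possible because the series has a single group. The summed level of the members, 43775 CPM, was 20156 per 1000000 reads with all reads as denominator and 50588 CPM without Mir99a in the total, and 42621 to 44929 CPM leaving out each library. Their share of 4.38% was 2.02% and 5.06% under these 2 settings in turn, 4.82% with the opposite-strand counts at Mirlet7e and Mirlet7f-1 added (chosen after seeing the data), and 4.26% to 4.49% leaving out each library. The single-copy over multi-copy ratio of 48.2 was 18.3 by medians, 30.6 without Mirlet7g, 8.76 without Mirlet7g and Mirlet7i and 52.2 with the opposite-strand counts (both of these also chosen after seeing the data), and 45.3 to 51.0 leaving out each library. The count of members called between the libraries, 0, was 8 without a minimum fold and 0 under the other 7 settings. The single-copy member was above its neighbour in 3 of 3 loci with both strands together and in each library alone. Each of these settings changes the total, the minimum fold, the hairpins, the summary or the libraries by construction, and no further cause was tested. Reads at several positions are in none of the values, and their number for each hairpin was not measured. With 2 libraries every SD rests on 1 difference. Adding the other annotated let-7 genes of the tables gave no value, since no further row carries such a symbol.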
